A study of Mus musculus with 9 samples.

Results

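The genes described here were Fdft1 and Sqle, which encode the enzymes that make squalene and oxidise it on the way to cholesterol. They were chosen by name, with their levels in these livers already known, and they were 2 of the 5608 genes in the expression table. The table held TPM values, a transcript abundance corrected for transcript length and library size, for the livers of 9 C57BL/6J mice of wild-type genotype, 3 in each group. FED mice ate standard diet ad libitum, IF mice (intermittent fasting) went without food on days 1 and 4 for 24 h each time, and FMD mice (fasting-mimicking diet) received the diet on days 2 to 4, at 50% of their average calorie intake on the first of those days and at 10% afterwards. All mice were killed on day 5, and their age was not given in the sources used here. The replicate numbers were 1, 2 and 3, except in FMD, where they were 1, 2 and 4.

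Cholesterol is built from acetyl-CoA through mevalonate and farnesyl diphosphate. Fdft1, squalene synthase, joins a pair of farnesyl diphosphate molecules into squalene and so draws farnesyl units out of the isoprenoid pool and into sterols. Sqle, squalene monooxygenase, then adds an oxygen atom to squalene with electrons passed on by NADPH-cytochrome P450 reductase, and is known as a rate-limiting step of the pathway. In liver the genes of this pathway are known targets of the SREBP transcription factors, whose release from the endoplasmic reticulum is held back by sterols through the Insig proteins.

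Part of the coding sequence of each gene is shown to tie the gene names to what they encode. The stretches lie around the catalytic or cofactor motifs, with the codons of the motif in capitals, and were read from GENCODE transcripts on build GRCm38 from 5′ to 3′ along the mRNA. The Fdft1 transcript had a coding length of 1248 bases in 10 exons on the minus strand of chromosome 14, and the Sqle transcript 1716 bases in 11 exons on the plus strand of chromosome 15. The first Fdft1 stretch lies in exon 5 at chr14:63163401-63163475 and encodes the aspartate-rich motif at residues 80 to 84. The second lies in exon 7 at chr14:63156562-63156636 and encodes the aspartate-rich motif at residues 219 to 223. The Sqle stretch lies in exon 2 at chr15:59317862-59317939 and encodes the glycine-rich motif at residues 128 to 133, of the kind that holds a dinucleotide cofactor such as FAD.
Fdft1, first aspartate-rich motif: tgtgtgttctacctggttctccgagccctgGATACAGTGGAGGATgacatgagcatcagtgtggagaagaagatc
Fdft1, second aspartate-rich motif: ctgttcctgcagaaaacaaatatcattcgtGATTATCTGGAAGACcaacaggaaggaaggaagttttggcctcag
Sqle, glycine-rich motif: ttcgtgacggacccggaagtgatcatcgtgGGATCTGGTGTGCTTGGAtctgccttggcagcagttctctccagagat

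In this annotation the 3′ end of Fdft1 overlapped Ctsb on the opposite strand by 774 bases, and Sqle overlapped no other gene. The libraries were strand-specific, but whether strand was used in counting was not given in the sources used here, and Ctsb was not analysed here.

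The listed genes held 26.3% to 29.3% of each FED library's total TPM, 32.9% to 34.9% in IF and 34.9% to 43.0% in FMD, where replicate 1 was the highest. The median log2 fold change of the 4665 genes tested (mean of at least 1 TPM) was 0.24 in IF against FED, 0.48 in FMD against FED and 0.24 in FMD against IF, so a gene that fell did so against listed genes that were, on balance, higher. Each comparison is therefore also given on values scaled by the median of ratios, which set those medians near 0. None of the 9 hepatocyte markers in the list used here was among the genes analysed, so the tissue label was not checked against them. Of 7 stellate cell markers 2 were analysed, Col1a1 and Dcn, and their summed level was 65.0 to 91.8 TPM for FED, 121 to 157 TPM for IF and 106 to 214 TPM for FMD. The sum was almost all Dcn, since Col1a1 lay between 0.27 and 1.63 TPM. Against FED the log2 fold change of Dcn was 0.86 in IF and 0.90 in FMD, and that of Col1a1 was -0.13 and -0.22. Oit3, from 8 endothelial markers, was at 6.58 to 9.28, 6.35 to 8.02 and 8.85 to 17.2 TPM, and Krt19, from 6 cholangiocyte markers, at 0.76 to 1.78, 1.02 to 2.06 and 1.22 to 4.07 TPM in the same order. Their part in the results was not tested. In bulk liver, fewer cells of a type and less RNA per cell cannot be told apart.

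The Sqle level (gene ID 20775) was highest in FED and lowest in FMD. It was 48.1, 33.7 and 56.5 TPM in FED replicates 1, 2 and 3. It was 21.95, 26.5 and 37.9 TPM in IF replicates 1, 2 and 3. It was 12.1, 19.9 and 25.4 TPM in FMD replicates 1, 2 and 4. All FMD values lay below all FED values, whereas IF replicate 3 exceeded FED replicate 2, and FMD replicate 4 exceeded IF replicate 1, so neighbouring groups overlapped. The mean level was 46.1 ± 11.5 TPM for FED, 28.8 ± 8.22 TPM for IF and 19.1 ± 6.65 TPM for FMD (SD, n = 3 each), which placed the IF mean at 62.5% and the FMD mean at 41.5% of the FED mean.

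The Fdft1 level (gene ID 14137) followed the same order of groups. It was 75.1, 59.6 and 87.2 TPM in FED replicates 1, 2 and 3. It was 49.0, 53.0 and 65.0 TPM in IF replicates 1, 2 and 3. It was 21, 37.6 and 49.6 TPM in FMD replicates 1, 2 and 4. Again all FMD values lay below all FED values, and the neighbouring groups overlapped at IF replicate 3 with FED replicate 2 and at FMD replicate 4 with IF replicate 1. The mean level was 74.0 ± 13.8 TPM for FED, 55.7 ± 8.34 TPM for IF and 36.1 ± 14.4 TPM for FMD (SD, n = 3 each), and the IF and FMD means were 75.3% and 48.8% of the FED mean. On this length-corrected scale Fdft1 was above Sqle in all 9 libraries.

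**Figure D1:**
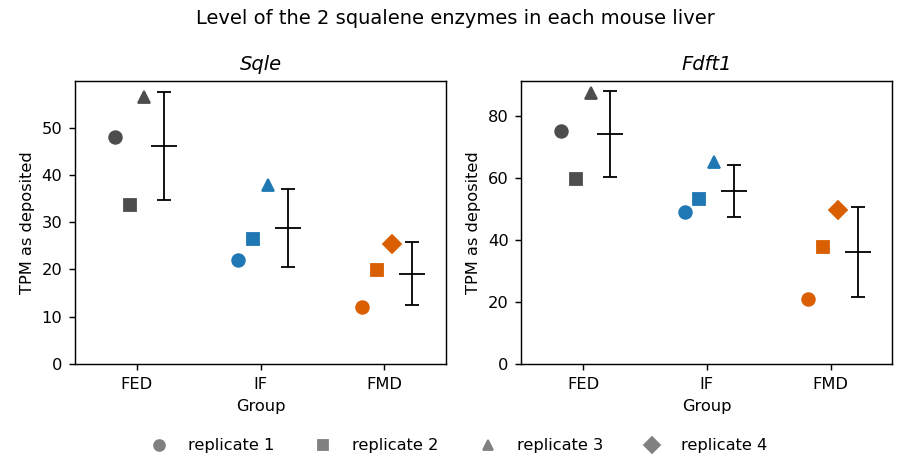
TPM (vertical axis, as deposited) of Sqle and Fdft1 in each of the 9 livers by group, with the marker shape giving the replicate number and the black bar the group mean ± SD (n = 3). For both genes all FMD livers sit below all FED livers, the IF livers lie between and overlap both, and FMD replicate 1 is the lowest of the 9, at 12.1 TPM for Sqle and 21 TPM for Fdft1.

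These fold changes are a description without a test, because the genes were chosen with their values known. On the log2(TPM + 1) scale, Sqle differed by -0.67 in IF against FED, by -1.25 in FMD against FED and by -0.59 in FMD against IF (SE 0.28 for each). Fdft1 differed by -0.40, -1.08 and -0.68 in the same order (SE 0.27 for each). These SE pool the spread over all 3 groups. In a fit of IF and FED alone the SE was 0.21 for Sqle and 0.14 for Fdft1. In the fits of FMD with 1 other group it was 0.28 to 0.29 for both genes. Of the 4665 genes tested, 25 had a lower log2 fold change than Sqle and 35 a lower one than Fdft1 in FMD against FED. The IF and FMD differences from FED share the same 3 FED livers, so they are not independent of each other.

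Non-overlapping groups with lower values were found for 2.62% of all tested genes in FMD against FED, where both genes were among them, and for 6.77% in IF against FED and 3.04% in FMD against IF, where neither was. The matching share for higher values was not computed, so genes described below as higher without overlap have no such share beside them. After scaling, the differences of Sqle were -0.94 (IF against FED), -1.79 (FMD against FED) and -0.84 (FMD against IF), and those of Fdft1 were -0.67, -1.62 and -0.95. On the scaled values both genes separated all IF livers from all FED livers as well, as did 22.7% of tested genes, and separated FMD from FED, as did 18.2%. Fdft1 also separated FMD from IF on this scale, as did 13.8%, whereas Sqle did not.

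The level in FMD replicate 1 was the lowest of all libraries for both genes, and this library also had the highest level of the macrophage marker Cd68. The library stood apart over the whole table too. Its scale factor was 1.44, beside 1.15 and 1.09 in FMD replicates 2 and 4, and its listed genes held 43.0% of total TPM. Without it 1166 genes were called in FMD against FED, in place of 1732. Cd68, the only gene analysed of the 11 on the Kupffer cell and macrophage list, was at 64.0, 12.2 and 5.75 TPM in FMD replicates 1, 2 and 4, and between 3.14 and 10.4 TPM in the FED and IF livers. The other markers on that list were not analysed here, and the part of such cells in the result was not tested. Without FMD replicate 1, the FMD against FED difference was -0.97 for Sqle and -0.75 for Fdft1, and the FMD against IF difference was -0.31 for Sqle and -0.35 for Fdft1. The FMD against IF difference of Sqle was also reduced, to -0.38, without IF replicate 3.

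The ratio of the genes to each other varied less than either level. Over the 9 livers the highest value was 4.65 times the lowest for Sqle, 4.15 times for Fdft1 and 1.45 times for their ratio. The ratio of Sqle to Fdft1 TPM was 0.640, 0.566 and 0.647 in FED replicates 1, 2 and 3. It was 0.448, 0.499 and 0.583 in IF replicates 1, 2 and 3, and 0.578, 0.529 and 0.511 in FMD replicates 1, 2 and 4. The mean ratio was 0.618 ± 0.0454 in FED, 0.510 ± 0.0681 in IF and 0.539 ± 0.0345 in FMD (SD, n = 3 each). The ranges of all 3 groups overlapped, at IF replicate 3 and FMD replicate 1 against FED replicate 2. The ratio does not depend on library scaling.

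The livers also stood in the same order for both genes within every group. From lowest to highest this order was replicates 2, 1 and 3 in FED, replicates 1, 2 and 3 in IF, and replicates 1, 2 and 4 in FMD. Of the 4665 genes tested, 7 (0.15%) had this order in all 3 groups. The order was taken from Sqle, which is therefore in the count by construction. The share expected of unrelated genes was not computed, so the percentage is not read as a mark of rarity. Besides Sqle and Fdft1 these were Hmgcs1, Pmvk and Cyp51, which belong to the same pathway, and Ociad2 and Ptms. On scaled values the order of both genes was the same, and 26 genes (0.557%) had it, which were the pair itself and 24 others, among them Hmgcs1, Pmvk and Cyp51. Deviations from the group means on the log2 scale had a correlation of 0.95 between Sqle and Fdft1 over the 9 libraries, a description in which both values come from the same library.

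**Figure D2:**
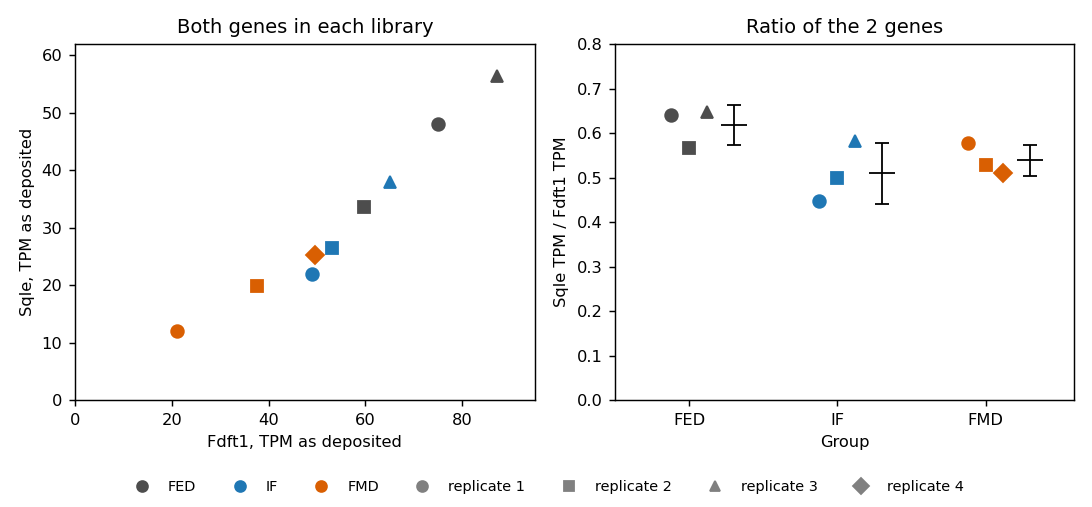
Left, TPM of Sqle (vertical) against TPM of Fdft1 (horizontal) in each of the 9 livers, and right, their ratio by group with the black bar as the mean ± SD (n = 3). Colours mark the groups and shapes the replicate numbers. The points rise together from FMD replicate 1 to FED replicate 3, and the ratio lies between 0.448 and 0.647 in all livers.

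The other genes of cholesterol synthesis were then compared, to place squalene synthesis in its pathway. Of the 19 other genes on the list, 4 were tested and are reported, namely Hmgcs1 and Pmvk upstream of squalene and Cyp51 and Lbr downstream. A gene was called when limma's adjusted p was below 0.05 and its fold change exceeded 1.5 in either direction. This list and those below were also chosen with earlier results of these data known. Their calls and counts are therefore a description and not an independent test. In FMD against FED 3 of the 4 fell and none rose, against 1.59% of all tested genes that fell and 35.5% that rose. In IF against FED 1 of the 4 fell and none rose, against 1.59% and 10.3%. These shares hold only for the genes tested here, which are part of the transcriptome. Over its own set of genes, the paper reported more lower than higher genes in each diet against FED. In FMD against IF 0 of the 4 were called by limma, against 0.472% lower and 4.67% higher, and 1 had an unadjusted p below 0.05. The median difference of the 4 genes was -1.16 in FMD against FED, -0.79 in IF against FED and -0.23 in FMD against IF. On scaled values the counts for the 4 genes were the same, with 5.72% of tested genes lower and 5.47% higher in FMD against FED, 3.43% and 3.71% in IF against FED, and 1.09% and 1.07% in FMD against IF.

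Hmgcs1, the synthase that makes HMG-CoA for the mevalonate pathway, was at 161, 134 and 212 TPM in FED replicates 1, 2 and 3, at 84.5, 89.6 and 129 TPM in IF replicates 1, 2 and 3, and at 38.0, 59.7 and 84.3 TPM in FMD replicates 1, 2 and 4. The 3 groups did not overlap in either step down. Hmgcs1 fell by 1.51 in FMD against FED (SE 0.28, limma adjusted p = 0.00156). Its differences of -0.74 in IF against FED (adjusted p = 0.0754) and -0.77 in FMD against IF (adjusted p = 0.0896) did not pass the limma test.

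Pmvk, phosphomevalonate kinase, was the cholesterol synthesis gene called in both diets. It was at 75.5, 43.4 and 85.3 TPM in FED replicates 1, 2 and 3, at 27.7, 28.4 and 41.3 TPM in IF replicates 1, 2 and 3, and at 22.8, 32.7 and 37.5 TPM in FMD replicates 1, 2 and 4. All IF and FMD livers were below all FED livers, and IF and FMD overlapped. Against FED, Pmvk fell by 1.01 in IF (SE 0.26, limma adjusted p = 0.0198) and fell by 1.08 in FMD (SE 0.26, limma adjusted p = 0.00569). The FMD calls of Hmgcs1, Pmvk and Cyp51 held under all 14 alternatives run. The IF call of Pmvk was lost when FED replicate 1, FED replicate 3, IF replicate 1 or IF replicate 2 was left out, and 3 of the 4 genes were called in IF when FMD replicate 1 or FMD replicate 4 was left out of the common fit.

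Cyp51, lanosterol demethylase, acts after the ring system has been closed. It was at 63.4, 58.2 and 76.1 TPM in FED replicates 1, 2 and 3, at 28.1, 32.5 and 50.5 TPM in IF replicates 1, 2 and 3, and at 14.5, 27.3 and 50.9 TPM in FMD replicates 1, 2 and 4. FED stood above both diets without overlap, while FMD spanned more than the whole IF range. Cyp51 fell by 1.23 in FMD against FED (SE 0.36, limma adjusted p = 0.0135), and its differences of -0.85 in IF against FED and -0.38 in FMD against IF had adjusted p = 0.11 and 0.441.

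Lbr, a sterol reductase of the inner nuclear membrane, lay between 3.53 and 5.33 TPM in all livers and differed by -0.12 in IF and 0.08 in FMD against FED (limma adjusted p = 0.524 and 0.591). After scaling these differences were -0.35 and -0.37 (limma adjusted p = 0.139 and 0.0978). All IF livers then lay below all FED livers, as they did for 22.7% of tested genes.

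**Figure D3:**
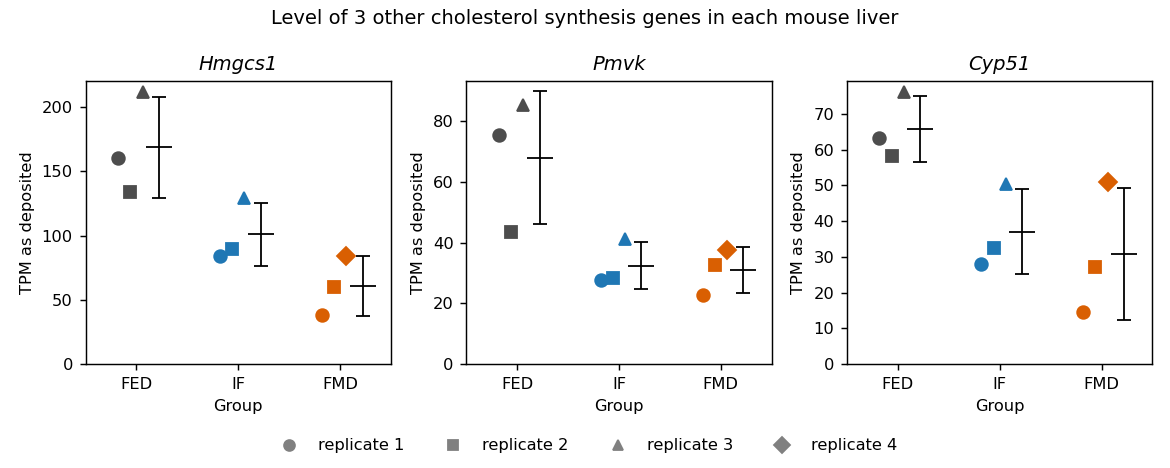
TPM (vertical axes, as deposited) of Hmgcs1, Pmvk and Cyp51 in each liver by group, with the marker shape giving the replicate number and the black bar the group mean ± SD (n = 3). Hmgcs1, Pmvk and Cyp51 are highest in FED without overlap with either diet.

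**Figure D4:**
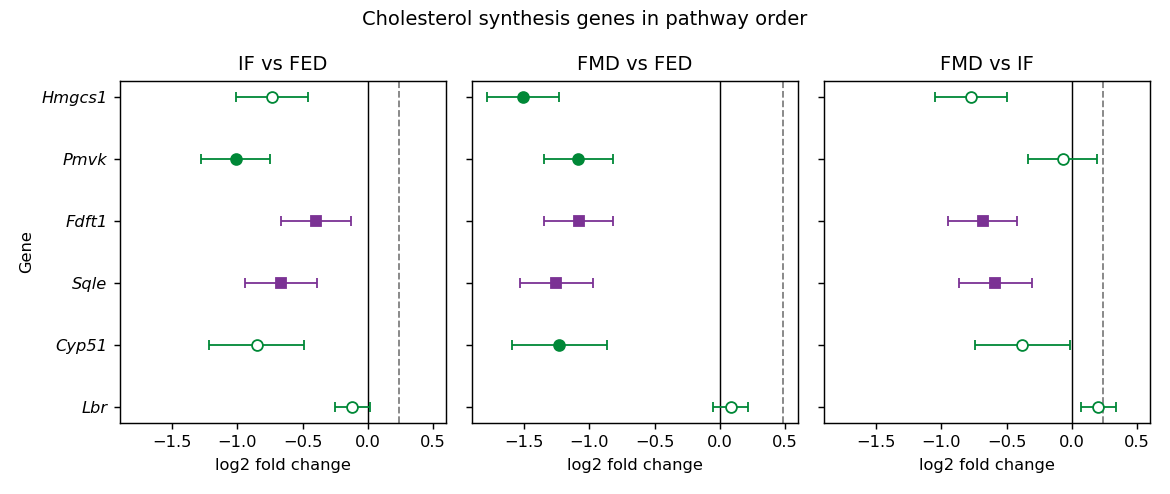
Log2 fold change (horizontal axes, on log2(TPM + 1), error bars ± SE from limma) of the cholesterol synthesis genes from the start of the pathway (top) to its end (bottom). Squares are Sqle and Fdft1, shown without a test, filled circles passed the limma call, open circles did not, and the dashed line is the median of the 4665 genes tested. In FMD against FED, Hmgcs1, Pmvk, Fdft1, Sqle and Cyp51 lie between -1.51 and -1.08, and Lbr lies near 0.

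Farnesyl diphosphate, the substrate of Fdft1, is also used to make dolichol, ubiquinone and prenyl groups. Of the 17 genes on the list of this isoprenoid branch 7 were tested. Against FED, 1 rose in IF and 2 rose in FMD by the limma call, beside 10.3% and 35.5% of all tested genes, and 0 of the 7 fell in either diet, beside 1.59%. Rabggtb, a subunit of the enzyme that prenylates Rab proteins, rose by 0.72 in IF against FED (limma adjusted p = 0.00599) and rose by 0.86 in FMD against FED (limma adjusted p = 0.000959). Nus1, a subunit of the enzyme that elongates the dolichol chain, rose by 0.83 in FMD (adjusted p = 0.00234). The other genes tested, Fntb, Pggt1b, Rabggta, Zmpste24 and Dolk, had differences from -0.37 to 0.27 in IF and from 0.17 to 0.42 in FMD. The median of the 7 genes was 0.24 in IF and 0.41 in FMD, beside 0.24 and 0.48 for all tested genes. After scaling the medians were 0.01 and -0.11, and 0 of the 7 were called by limma in either diet, with an unadjusted p below 0.05 for 2 in IF and 2 in FMD.

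Por, NADPH-cytochrome P450 reductase, which feeds electrons to Sqle and to the microsomal cytochromes P450, was higher in both diets. It was at 74.5, 97.9 and 104 TPM in FED replicates 1, 2 and 3, at 329, 400 and 256 TPM in IF replicates 1, 2 and 3, and at 643, 795 and 502 TPM in FMD replicates 1, 2 and 4. The 3 groups did not overlap. Against FED, Por rose by 1.81 in IF (SE 0.21, limma adjusted p = 0.000401) and rose by 2.79 in FMD (SE 0.21, limma adjusted p = 1.46e-05). It rose by 0.97 in FMD against IF (adjusted p = 0.0296, and 0.0822 on scaled values). The last call was also lost in a fit of FMD and IF alone, and when FED replicate 3 or any 1 of the IF replicates was left out. Cyb5a, microsomal cytochrome b5, was the other of the 4 listed partners that was tested, and its differences of 0.36 in IF and 0.35 in FMD did not reach the fold limit. On scaled values they were 0.08 and -0.21.

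The regulators of sterol synthesis and uptake were examined next. Of 22 genes 15 were tested. Against FED, 3 rose and 1 fell in IF, and 4 rose and 1 fell in FMD, and 3 rose and none fell in FMD against IF. Of all tested genes, 10.3% rose and 1.59% fell in IF, 35.5% rose and 1.59% fell in FMD, and 4.67% rose and 0.472% fell in FMD against IF. On scaled values the counts were 1 higher and 2 lower in IF, 3 higher and 2 lower in FMD, and 1 higher in FMD against IF. Beside these, 3.71% of all tested genes were higher and 3.43% lower in IF. The shares were 5.47% and 5.72% in FMD, and 1.07% and 1.09% in FMD against IF. The share of the 15 regulators that rose in FMD was below that of all tested genes as deposited and above it after scaling. With 15 genes, neither is read as a trait of the list. The median of the 15 genes was 0.27 in IF and 0.42 in FMD against FED, where all tested genes had 0.24 and 0.48, and on scaled values it was 0.00 and -0.12.

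Srebf1, which encodes the SREBP form best known for fatty acid synthesis, was the regulator that was lower in both diets. It was at 66.2, 28.1 and 44.6 TPM in FED replicates 1, 2 and 3, at 19.0, 24.5 and 23.6 TPM in IF replicates 1, 2 and 3, and at 17.1, 11.02 and 24.3 TPM in FMD replicates 1, 2 and 4. All IF and FMD livers were below all FED livers, and unlike Sqle the lowest FMD value was in replicate 2. Srebf1 fell by 0.95 in IF (SE 0.31, limma adjusted p = 0.048). In FMD it fell by 1.34 (SE 0.31, limma adjusted p = 0.00434). The call in IF was lost in 6 of 14 alternatives, among them the removal of FED replicate 1, FED replicate 3 or any 1 of the IF replicates, whereas that in FMD held in all.

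Insig2, which retains the SREBP complex in the endoplasmic reticulum, ranged from 113 to 140 TPM in the FED livers, from 200.1 to 242 TPM in the IF livers and from 170 to 357 TPM in the FMD livers, and FED lay below both diets. It rose by 0.87 in IF (limma adjusted p = 0.021) and rose by 1.08 in FMD (limma adjusted p = 0.00323), and neither call held on scaled values (adjusted p = 0.0598 and 0.0713). The IF call was also lost without FED replicate 2, FED replicate 3, IF replicate 1 or IF replicate 2. Scap, the SREBP escort protein, differed by -0.04 in IF and 0.00 in FMD. On scaled values these differences were -0.32 and -0.54 (limma adjusted p = 0.154 and 0.0203) and did not reach the fold limit. All livers of both diets then lay below all FED livers, as they did for 22.7% of tested genes in IF and 18.2% in FMD. Mbtps1 and Mbtps2, the proteases that release SREBP, had differences of 0.02 and 0.35 in IF and of 0.32 and 0.51 in FMD, which were not called. On scaled values those of Mbtps1 turned to -0.25 and -0.21, and those of Mbtps2 were 0.16 and 0.11.

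Rnf145, a sterol-regulated ubiquitin ligase of the endoplasmic reticulum, was at 4.55, 3.89 and 6.06 TPM in FED replicates 1, 2 and 3, at 7.17, 7.36 and 5.50 TPM in IF replicates 1, 2 and 3, and at 19.2, 11.4 and 11.5 TPM in FMD replicates 1, 2 and 4. FMD stood above both other groups without overlap. Rnf145 rose by 1.35 in FMD against FED (SE 0.21, limma adjusted p = 0.000707) and by 0.94 against IF (adjusted p = 0.0311), also on scaled values. The call against IF was lost in a fit of FMD and IF alone, and without FED replicate 1 or any 1 of the IF replicates. Of the other genes on the list that serve sterol-regulated protein degradation, Erlin1 rose by 0.71 in FMD against IF (limma adjusted p = 0.0245). This call was lost on scaled values and in a fit of FMD and IF alone. It was also lost without FMD replicate 1 or any 1 of the IF replicates. On scaled values Erlin1 was lower in IF than in FED, at -0.78 (adjusted p = 0.000834). Rnf139, Faf2, Erlin2 and Marchf6 were called in no comparison. Marchf6, the ligase known to act on the Sqle protein, differed by 0.57 in IF and 0.42 in FMD against FED, the latter below the median of all tested genes. These differences had limma adjusted p = 0.0132 and 0.0182 and missed the call only on the fold limit. Rnf139 and Erlin2 missed it in the same way in FMD against FED. On scaled values the difference of Marchf6 was 0.30 in IF and turned to -0.12 in FMD (limma adjusted p = 0.193 and 0.597).

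Of the genes of sterol uptake, Mylip and Npc1 were called. Mylip, the ligase that removes the LDL receptor, rose by 0.99 in IF (limma adjusted p = 0.00294) and rose by 1.49 in FMD (limma adjusted p = 0.000144). Its level was between 1.64 and 2.45 TPM in the FED livers, between 4.76 and 5.35 TPM in the IF livers and between 5.64 and 9.33 TPM in the FMD livers. Npc1, which carries cholesterol out of the lysosome, rose by 0.75 in IF (adjusted p = 0.0106, and 0.107 on scaled values) and rose by 1.38 in FMD (limma adjusted p = 0.000221). Without IF replicate 1 or IF replicate 2 the IF call was lost. It was also 0.62 higher in FMD than in IF (limma adjusted p = 0.0487, and 0.269 on scaled values), a call lost in 11 of 14 alternatives. Npc2, its partner, and Lrp1, a receptor for remnant particles, were not called, except that Lrp1 was lower by -0.86 in FMD against FED on scaled values (adjusted p = 0.00878).

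**Figure D5:**
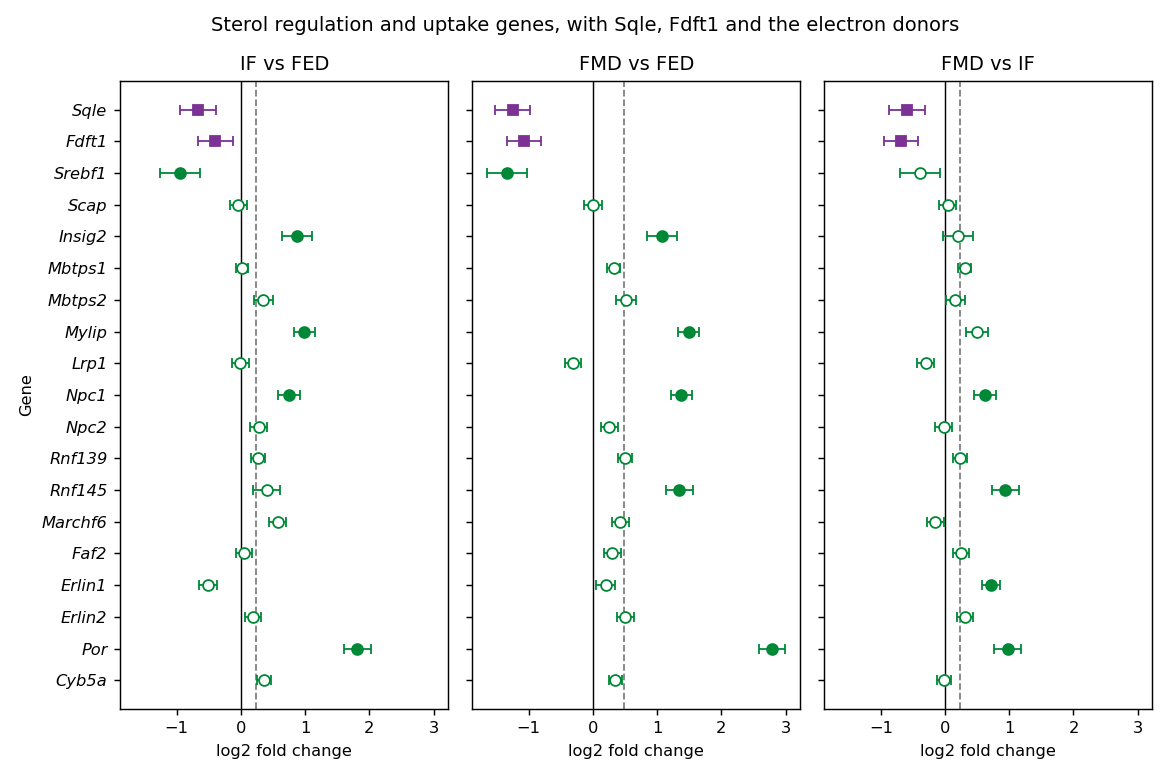
Log2 fold change (horizontal axes, on log2(TPM + 1), error bars ± SE from limma) of Sqle and Fdft1 (squares, shown without a test), of the 15 tested genes of sterol regulation and uptake, and of the electron donors Por and Cyb5a. Filled circles passed the limma call, open circles did not, and the dashed line is the median of all genes tested. Srebf1 lies on the side of Sqle and Fdft1 in both comparisons with FED, Por lies farthest to the other side, and most regulators lie near the dashed line.

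On the list of sterol transport, ester and bile acid genes, 7 of 33 were tested. Against FED 3 rose in IF and 4 rose and 1 fell in FMD, and 0 were called by limma in FMD against IF, where 2 had an unadjusted p below 0.05. Beside these counts stand the 10.3% of all tested genes that rose in IF, and the 35.5% that rose and 1.59% that fell in FMD. In FMD against IF 4.67% of all tested genes were higher and 0.472% lower. On scaled values 2 of the 7 were higher in each diet and 1 was lower in FMD against FED, and 1 was lower in FMD against IF. Beside these, 3.71% of tested genes were higher in IF, 5.47% higher and 5.72% lower in FMD, and 1.09% lower in FMD against IF. Nceh1 and Lipa, which hydrolyse cholesterol esters, rose by 1.08 and 0.62 in IF (limma adjusted p = 0.00917 and 0.0168) and rose by 1.83 and 0.91 in FMD (limma adjusted p = 0.000261 and 0.00109). The Lipa calls were lost on scaled values, and in IF also without FED replicate 1, FED replicate 2, IF replicate 1 or IF replicate 2. Hsd3b7, an enzyme of bile acid synthesis from cholesterol, fell by 0.80 in FMD (adjusted p = 0.000398). Hsd17b4, which takes part in peroxisomal side-chain shortening, rose by 0.94 in IF and 1.16 in FMD (adjusted p = 0.00176 and 0.000244), and Acox2 of the same route rose by 0.74 in FMD (adjusted p = 0.013), a call lost on scaled values and without FMD replicate 1. Of the 14 genes on the fatty acid synthesis list 8 were tested, with 3 lower and 1 higher in IF and 4 lower and 2 higher in FMD against FED, beside 1.59% of all tested genes lower in each diet and 10.3% and 35.5% higher. On scaled values 5 were lower and 1 higher in IF, and 6 lower and 1 higher in FMD, beside 3.43% lower and 3.71% higher, and 5.72% lower and 5.47% higher.

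The genes most like Sqle and Fdft1 across the 9 livers were sought by Pearson's r of log2(TPM + 1) among 4664 other genes, as a measure of likeness with no test. The 5 closest to Sqle were Hmgcs1 (r = 0.987), Fdft1 (0.971), Cyp51 (0.947), Ptms (0.93) and Nit2 (0.93). The 5 closest to Fdft1 were Hmgcs1 (r = 0.976), Sqle (0.971), Ptms (0.964), St6gal1 (0.954) and Dhrs3 (0.942). Hmgcs1 headed both, and apart from the pair itself Hmgcs1 and Ptms were on both lists. Cyp51 stood at rank 7 and Pmvk at rank 23 for Fdft1, whereas Pmvk stood at rank 6 for Sqle. On scaled values these ranks were 16, 83 and 9. The livers fall into 3 groups, so these values mix differences between groups with differences within them. Within groups, deviations from the means gave r = 0.971 for Sqle and 0.97 for Fdft1 with Hmgcs1.

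The pattern of Ptms, which encodes parathymosin, was much flatter than that of the enzymes. It ranged from 509 to 524 TPM in FED, from 441 to 530 TPM in IF and from 332 to 446 TPM in FMD. Nit2, an omega-amidase, ranged from 124 to 139 TPM in FED, from 91.6 to 101 TPM in IF and from 56.0 to 86.4 TPM in FMD. St6gal1, a sialyltransferase, ranged from 22.7 to 25.8, from 20.0 to 22.4 and from 12.1 to 19.7 TPM, and Dhrs3, a retinal reductase, from 87.1 to 99.1, from 70.5 to 84.3 and from 42.5 to 68.4 TPM in the same order of groups. On scaled values Hmgcs1 headed both lists again, with r = 0.993 for Sqle and 0.988 for Fdft1, and Ociad2 took the place of Nit2 and of Dhrs3.

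The promoter of Hmgcs1 is shown because this gene was the closest to both squalene enzymes. Promoter windows from RefSeq on build GRCm38.p6 were at hand for 4 of the 6 cholesterol synthesis genes reported, namely Hmgcs1, Cyp51, Pmvk and Lbr. The 250 bases before each annotated start were searched on both strands for the sterol regulatory element TCACNCCAC, its core CACNCCAC, which lies within it, the CCAAT box and the GC box GGGCGG. The Hmgcs1 window is chr13:119690101-119690350 on the plus strand and the Cyp51 window is chr5:4104698-4104947 on the minus strand. Capitals mark the matches to the sterol regulatory element and to the CCAAT box in either orientation.
Hmgcs1: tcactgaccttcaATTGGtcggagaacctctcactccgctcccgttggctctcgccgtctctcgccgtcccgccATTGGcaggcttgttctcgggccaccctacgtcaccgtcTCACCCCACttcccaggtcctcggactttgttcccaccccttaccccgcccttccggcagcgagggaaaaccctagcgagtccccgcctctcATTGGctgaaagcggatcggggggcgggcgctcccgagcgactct
Cyp51: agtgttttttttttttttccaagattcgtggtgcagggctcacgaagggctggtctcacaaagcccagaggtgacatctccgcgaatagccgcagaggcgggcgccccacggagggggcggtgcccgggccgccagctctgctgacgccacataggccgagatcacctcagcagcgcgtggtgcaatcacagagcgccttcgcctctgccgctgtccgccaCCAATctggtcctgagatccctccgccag

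The Hmgcs1 window held 1 match to the sterol regulatory element, with its first base 137 bases before the annotated start, and 3 CCAAT boxes and 2 GC boxes. The bases just after the annotated start were found in a GENCODE transcript for Cyp51 and Pmvk, but not for Hmgcs1 and Lbr. The distance of 137 bases therefore rests on the RefSeq start alone. The Cyp51 window held 1 CCAAT box and 1 GC box and no match to the element or its core. The Lbr window held 2 CCAAT boxes and 1 GC box, and of the 2 Pmvk windows 1 held a CCAAT box. Among all 32851 windows of this length, 1.05% held the element, 5.29% its core, 33.8% a CCAAT box and 32.7% a GC box. A match is a run of letters in the reference and not a measured binding site. Other forms of the sterol regulatory element were not searched, so a window without a match, such as that of Cyp51, may still hold one.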

How the data were processed

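RNA-seq was analysed from the livers of 9 mice, 3 per group, which were separate animals. Per the labels and the study's methods, RNA was enriched with oligo-dT, strand-specific libraries were sequenced on DNBSEQ, and the authors deposited a table of TPM values for 5608 genes. The submitters' processing notes name DESeq2 and build mm39, and the aligner, the annotation and the sequencing depth were not given in the sources used here, so no counting error could be computed. Columns were assigned to groups by sample title.

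The deposited TPM values were analysed as log2(TPM + 1). Genes with a mean of at least 1 TPM over the 9 libraries (4665) were fitted in 1 linear model with limma 3.58.1 (R 4.3.3) with an intensity trend, and p-values were adjusted by Benjamini-Hochberg over all of them. Calls needed an adjusted p below 0.05 and a fold change above 1.5 in either direction. The script was tested on simulated data with the same spread in every group, independent libraries, and shifts in both directions. That test did not cover groups of unequal spread or a shift of most genes to 1 side. Sqle and Fdft1 received no p-value, since they were chosen with earlier results of these data known. The gene lists were chosen in the same way, so the p-values and counts of their genes are not independent tests. Named were Sqle, Fdft1, the tested genes of the cholesterol synthesis, isoprenoid, partner and regulation lists, called genes of the transport list, and the 5 genes most correlated with each enzyme. Alternatives were a pseudocount of 0.1 TPM, no filter, median-of-ratios scaling, 1 fit per pair of groups, a replicate block, no fold limit and leaving out each library. Reference sequences were of build GRCm38, and no coordinates were converted. Tables and plots were made with Python, pandas and matplotlib. Some genes of these lists are not reported here and were left out of the list counts.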

Additional observations from a re-analysis of the deposited data

How the results depend on the processing

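The log2 fold changes of Sqle and Fdft1 kept their sign under every alternative run. Scaling moved Fdft1 in IF against FED to -0.67, and Sqle and Fdft1 in FMD against FED to -1.79 and -1.62. Leaving out single libraries gave, for Sqle, -0.88 to -0.50 in IF against FED, -1.48 to -0.97 in FMD against FED and -0.81 to -0.31 in FMD against IF, and for Fdft1 -0.54 to -0.27, -1.35 to -0.75 and -0.95 to -0.35.

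Over the whole table, scaling gave 333 calls in IF against FED, 522 in FMD against FED and 101 in FMD against IF in place of 553, 1732 and 240, and dropping the fold limit gave 1112 and 3135 in the first pair. In FMD against IF, 1 fit per pair of groups gave 24 calls, and leaving out single libraries gave 18 to 820. For the 4 cholesterol synthesis genes, 3 were called in IF against FED with 1 fit per pair, and leaving out single libraries gave 0 to 3 in IF against FED and 0 to 2 in FMD against IF. For sterol regulation, dropping the fold limit gave 10 calls in FMD against FED, and in FMD against IF scaling gave 1 and 1 fit per pair gave 0, and leaving out single libraries gave 1 to 4 in IF against FED, 5 to 7 in FMD against FED and 0 to 4 in FMD against IF. For sterol transport, scaling gave 3 calls in FMD against FED and 1 in FMD against IF, where dropping the fold limit also gave 1 and leaving out libraries gave 0 to 1. For the isoprenoid branch, scaling gave 0 calls in IF and 0 in FMD against FED, dropping the fold limit gave 4 in FMD against FED, and leaving out libraries gave 0 to 2 in FMD against IF. For the partners, dropping the fold limit gave 2 in each comparison with FED, and in FMD against IF scaling and 1 fit per pair gave 0, with 0 to 1 when libraries were left out. For fatty acid synthesis in FMD against IF, scaling and 1 fit per pair gave 1, and leaving out libraries gave 1 to 3. The cause of these shifts was not tested.

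The replicate numbers were not used to pair the livers in the main fit. Correlations of deviations ranged from 0.00348 to 0.177 between same-numbered livers and from -0.202 to 0.211 between differently numbered livers. These values do not settle whether the numbers mark pairs. FMD replicate 4 shared its number with no other liver, so in a fit with a replicate block it added nothing to the group differences. Leaving that library out gave 820 calls over the table in FMD against IF. With a replicate block, the count over the table in FMD against IF was 772, that for cholesterol synthesis 3 in IF against FED and 1 in FMD against IF, and those for sterol transport and the isoprenoid branch 1 and 2 in FMD against IF. The depth of the libraries is unknown, so no counting error can be given for low levels such as those of Lbr.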
